A study of Homo sapiens with 6 samples.

Results

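The genes described here are 10 regulators of entry into and exit from mitosis: the protein kinase genes AURKA, AURKB, PLK1 and CDK1, the cyclin genes CCNB1, CCNB2 and CCNA2, the phosphatase gene CDC25C, the ubiquitin ligase activator gene CDC20 and the transcription factor gene FOXM1. They were picked as a functional group, with earlier results of these data known, and matched by symbol in a table of 17534 genes. All 10 passed the filter on low counts that left 13060 genes for testing. RNA sequencing had been performed on NCI-H1703, which the labels describe as a squamous carcinoma line of the lung, in 2 groups of 3 libraries. The genotype label of the controls is Sh-NC, an abbreviation left unexplained, while the title and design text speak of wild-type cells. The other libraries have the label Sh-PPM1G, a short hairpin RNA (shRNA) directed at the phosphatase gene PPM1G, and both groups were harvested with trypsin near confluence. No hairpin sequence, clone or culture of origin is named for any library, and each p-value therefore reflects variation among 6 libraries that may be technical repeats.

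Entry into mitosis is driven by CDK1 bound to B-type cyclins. The phosphatase CDC25C removes the inhibitory phosphates that the kinases WEE1 and PKMYT1 place on CDK1. Aurora A (AURKA) acts at centrosomes and spindle poles with its activator TPX2 and activates PLK1 together with BORA, whereas Aurora B (AURKB) acts at centromeres in the chromosomal passenger complex with INCENP, survivin (BIRC5) and borealin (CDCA8). CDC20 and its relative FZR1 activate the anaphase-promoting complex (APC/C), the ubiquitin ligase that destroys cyclin B and, later, the mitotic kinases. FOXM1 drives transcription of many of these genes in G2 together with the MuvB complex, which binds the cell cycle genes homology region (CHR) element, while the factor NF-Y binds CCAAT boxes in the same promoters. In cultured tumour cells these transcripts are known to be made mainly in G2 and mitosis, so their level in a bulk sample depends both on how many cells are cycling and on how much RNA each makes. These cannot be told apart here.

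Promoter sequences are shown because these genes moved together and short elements recur in many of them, though not in all. Of the 10 genes, 8 matched the RefSeq promoter table (GRCh38.p14), and AURKA and FOXM1 did not. Each stretch runs 5′ to 3′ on the gene's own strand over the 180 bases before 1 RefSeq start. Capitals mark each TTTGAA (the CHR core) or CCAAT, or its reverse complement. The stretches of CCNA2, which holds CCAAT but no TTTGAA, and of CDC25C, which holds neither at the start searched, are not printed. CCNB1 is at chr5:69166970-69167149 (+), CCNB2 at chr15:59104966-59105145 (+), CDK1 at chr10:60778151-60778330 (+), PLK1 at chr16:23678709-23678888 (+), CDC20 at chr1:43358801-43358980 (+) and AURKB at chr17:8210226-8210405 (-).
CCNB1: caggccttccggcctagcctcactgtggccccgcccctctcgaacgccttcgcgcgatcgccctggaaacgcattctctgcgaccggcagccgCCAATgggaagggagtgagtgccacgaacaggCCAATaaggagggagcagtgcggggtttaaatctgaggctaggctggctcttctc
CCNB2: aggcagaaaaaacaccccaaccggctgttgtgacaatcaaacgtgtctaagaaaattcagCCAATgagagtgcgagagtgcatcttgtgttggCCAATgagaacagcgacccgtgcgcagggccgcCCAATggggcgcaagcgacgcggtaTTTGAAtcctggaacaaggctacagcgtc
CDK1: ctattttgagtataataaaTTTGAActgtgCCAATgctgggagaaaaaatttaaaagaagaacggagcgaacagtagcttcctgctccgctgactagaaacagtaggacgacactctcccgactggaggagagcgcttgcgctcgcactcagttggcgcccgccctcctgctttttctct
PLK1: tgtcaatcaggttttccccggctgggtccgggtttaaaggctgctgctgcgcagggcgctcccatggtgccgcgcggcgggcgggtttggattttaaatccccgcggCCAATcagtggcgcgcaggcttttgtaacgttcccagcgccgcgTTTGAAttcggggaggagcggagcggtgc
CDC20: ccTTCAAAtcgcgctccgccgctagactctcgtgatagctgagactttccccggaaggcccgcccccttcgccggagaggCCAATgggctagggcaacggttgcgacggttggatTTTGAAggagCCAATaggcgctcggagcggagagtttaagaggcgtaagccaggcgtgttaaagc
AURKB: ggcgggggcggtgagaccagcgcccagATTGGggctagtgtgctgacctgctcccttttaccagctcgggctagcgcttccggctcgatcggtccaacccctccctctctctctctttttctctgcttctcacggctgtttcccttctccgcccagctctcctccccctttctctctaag

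Both strands were searched over a window of 300 bases, from 250 before to 50 after the start. Only exact letters were matched, so a variant form of an element would be missed. A promoter without TTTGAA may therefore still hold a CHR. In CCNB2, CCAAT began at positions -120, -87 and -54, which are 33 bases apart, with another at -244 and TTTGAA at -29. PLK1 likewise held TTTGAA at -29, with CCAAT at -73. CCNB1 held CCAAT at -87 and -55, which are 32 bases apart, and no TTTGAA. CDC20 held CCAAT at -100 and -55 and TTTGAA at -65 and, on the opposite strand, at -178. CDK1 held TTTGAA at -161 and CCAAT at -150, counted from its outermost start. AURKB and CCNA2 each held CCAAT on the opposite strand, at -153 and -56, and CDC25C held neither motif at its outermost start. No 2 of these matches shared a base. The table lists several starts for 3 of the 8 genes, and positions depend on which is used. The entry at the outer end of the gene was searched for CDK1 and CDC25C, and the first entry for AURKB, for which neither of 2 entries lies at that end. From the other CDK1 start, 147 bases downstream, matches of TTTGAA begin at -69, -13 and 10 and of CCAAT at -78 and -46. From a CDC25C start 6551 bases downstream, TTTGAA begins at -30 and CCAAT at -85. Over these windows, TTTGAA was present for 4 of the 8 matched genes and CCAAT for 7 of 8. With any listed start, a count made after the data were seen, these were 5 and 8. Over all tested genes with a promoter, the shares by a single start were 9.99% for TTTGAA and 37% for CCAAT. With any listed start they were 14.1% and 43.6%. In all 35116 promoters of the table, which include untested genes and several starts per gene, the shares were 15.2% for TTTGAA and 34.6% for CCAAT. The forkhead motif GTAAACA was found for CDK1 only among the 8, at -208. It was found for 2.35% of tested genes by a single start and in 3.42% of all promoters. A match is a description of letters and not a bound site.

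Library totals ranged from 31337553 to 35838246 counts, and replicates of a group differed by more than sampling noise in every pair (chi-square per degree of freedom 2.69 to 6.44). PPM1G itself (Entrez 5496; chromosome 2, positions 27381199 to 27409591 on GRCh38) stood at 333, 308 and 324 CPM (the count relative to the library total, scaled by TMM factors) in control libraries 1 to 3 and at 182, 194 and 188 CPM in PPM1G shRNA libraries 1 to 3, or 58.5% of the control level. Markers went partly against the label of the line. Of 7 squamous markers analysed, SOX2 had a mean of 22.7 CPM in control libraries, TP63 had 1.54 CPM and KRT6A, KRT14, DSG3, DSC3 and PKP1 were each under 1 CPM. A further squamous marker, KRT5, was absent from the deposited genes. The lung adenocarcinoma markers NKX2-1 and NAPSA had 114 and 2.16 CPM in control libraries, and SFTPA1, SFTPB and SFTPC were under 1 CPM. In PPM1G shRNA libraries the means were 10.6 CPM for SOX2, 0.836 for TP63, 121 for NKX2-1 and 21.8 for NAPSA. Of 11 markers of leukocytes, endothelium, fibroblasts and red cells, 8 were under 1 CPM in the means of both groups. The exceptions were COL1A1 (154 CPM in control and 344 CPM in PPM1G shRNA libraries), PECAM1 (5.31 and 1.07 CPM) and VWF (0.524 and 2.58 CPM), and their part in the results was not tested.

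All 10 mitotic regulators were lower in the PPM1G shRNA libraries, by 3.29-fold to 19.0-fold. The median log2 fold change was −3.0, or 12.5% of the control level, while the median over all 13060 genes was 0.01. Every one passed edgeR's quasi-likelihood test (adjusted p from 5.4e-34 for AURKB to 4.3e-22 for CDC25C), where 41.3% of all genes tested were called lower and 82.9% were called in either direction. Because so many genes passed, the change was also tested against a minimum of 2-fold (edgeR glmTreat). All 10 were lower by more than 2-fold in that test, with glmTreat adjusted p from 3.2e-31 for AURKB to 4.3e-18 for CDC25C. So were 9.2% of all genes tested, while 8.16% were higher by more than 2-fold. For each of the 10, the highest PPM1G shRNA library stood below the lowest control library, which held for 41.8% of genes tested (the reverse held for 41.9%). Only 4.99% of genes tested fell more than CDC20, the gene of the 10 that fell least, and 0.291% fell more than AURKB.

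**Figure D1:**
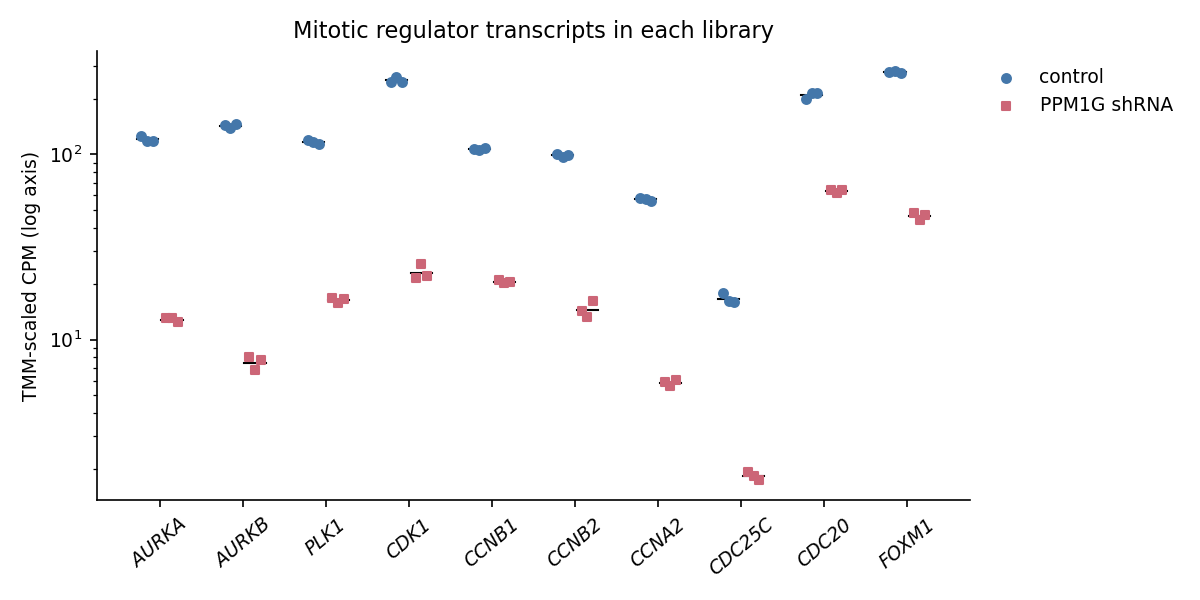
TMM-scaled CPM (log axis) of the 10 genes in each of 3 control libraries (circles) and 3 PPM1G shRNA libraries (squares), with a bar at each group's mean. The groups are separated for each gene, most widely for AURKB (143 against 7.51 CPM) and least for CDC20 (208 against 63.3 CPM).

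CDK1 (Entrez 983; chromosome 10, positions 60778331 to 60794852 on GRCh38), the kinase that triggers mitosis, stood at 247, 261 and 244 CPM in control libraries 1 to 3. In PPM1G shRNA libraries 1 to 3 it stood at 21.5, 25.5 and 22.0 CPM. The PPM1G shRNA libraries were all far below the controls, and library 2 was somewhat above the other two. This is a log2 fold change of −3.44 ± 0.05 (SE), or 9.19% of the control level.

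The B-type cyclins, which give CDK1 its activity at mitotic entry, fell less than their kinase. CCNB1 (Entrez 891; chromosome 5, 69167150 to 69178245) stood at 107, 105 and 108 CPM in the controls and at 21.0, 20.3 and 20.4 CPM in the PPM1G shRNA libraries. Its replicates were close together in both groups, and it kept 19.2% of its control level (log2 fold change −2.38 ± 0.05). CCNB2 (Entrez 9133; chromosome 15, 59105146 to 59125045), whose protein is found mainly at the Golgi, went from 100.2, 97.0 and 99.5 CPM to 14.2, 13.2 and 16.1 CPM. Its PPM1G shRNA libraries had the widest relative spread of the 10 genes, with a coefficient of variation of 10.4%, and its log2 fold change was −2.77 ± 0.06. CCNA2 (Entrez 890; chromosome 4, 121816444 to 121823883), which partners CDK2 in S phase and CDK1 in G2, went from 57.9, 57.6 and 55.8 CPM to 5.87, 5.62 and 6.06 CPM. It kept 10.2% of its control level, a log2 fold change of −3.29 ± 0.07. It overlaps EXOSC9 by 578 bases, and EXOSC9 had a log2 fold change of −0.36 ± 0.08.

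CDC25C (Entrez 995; chromosome 5, 138285265 to 138338355), the phosphatase that activates CDK1, was the least abundant of the 10. Its counts were 613, 553 and 546 in the controls against 62, 68 and 65 in the PPM1G shRNA libraries. These counts correspond to 17.9, 16.1 and 15.8 CPM and to 1.92, 1.84 and 1.75 CPM. The groups were far apart, but at this depth the SE of its log2 fold change (−3.18 ± 0.12) was the widest of the 10. Its locus overlaps 799 bases of FAM53C, which rose (0.92 ± 0.04), and no strand setting is stated for the counting.

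Among the other kinases, AURKB (Entrez 9212; chromosome 17, 8204731 to 8210575) had the largest fall of the 10. It stood at 144, 139 and 146 CPM in the controls and at 8.007, 6.808 and 7.727 CPM in the PPM1G shRNA libraries. That is 5.25% of the control level (log2 fold change −4.25 ± 0.06), the 39th deepest fall among 13060 genes. AURKA (Entrez 6790; chromosome 20, 56369390 to 56392215) went from 125, 118 and 118 CPM to 13.01, 13.02 and 12.38 CPM, with replicates close together in both groups. Its log2 fold change was −3.23 ± 0.05. RefSeq lists pseudogenes named AURKAP1, AURKAP2 and AURKBP1, and how reads shared with them (CCNB2P1 and CDC20P1 for another pair of the 10) were assigned is not stated, so a part of these counts is uncertain. PLK1 (Entrez 5347; chromosome 16, 23678889 to 23690367), which acts from centrosome maturation to cytokinesis, went from 119, 116 and 113 CPM to 16.8, 15.7 and 16.6 CPM. It kept 14.1% of its control level (−2.83 ± 0.05).

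CDC20 (Entrez 991; chromosome 1, 43358981 to 43363203), the APC/C activator of metaphase, fell least. Control libraries 1 to 3 stood at 198, 214 and 214 CPM and PPM1G shRNA libraries 1 to 3 at 64.2, 62.0 and 63.8 CPM. The groups did not overlap, and CDC20 kept 30.4% of its control level (log2 fold change −1.72 ± 0.04). FOXM1 (Entrez 2305; chromosome 12, 2857680 to 2877174) stood at 278, 281 and 274 CPM in the controls and at 48.2, 44.2 and 47.0 CPM in the PPM1G shRNA libraries. It kept 16.7% (−2.58 ± 0.04), so the transcript of this activator fell less than those of 7 of the other 9 genes. FOXM1 overlaps RHNO1 by 910 bases and ITFG2 by 2112 bases, and those genes had log2 fold changes of −0.12 ± 0.04 and 0.14 ± 0.07.

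**Figure D2:**
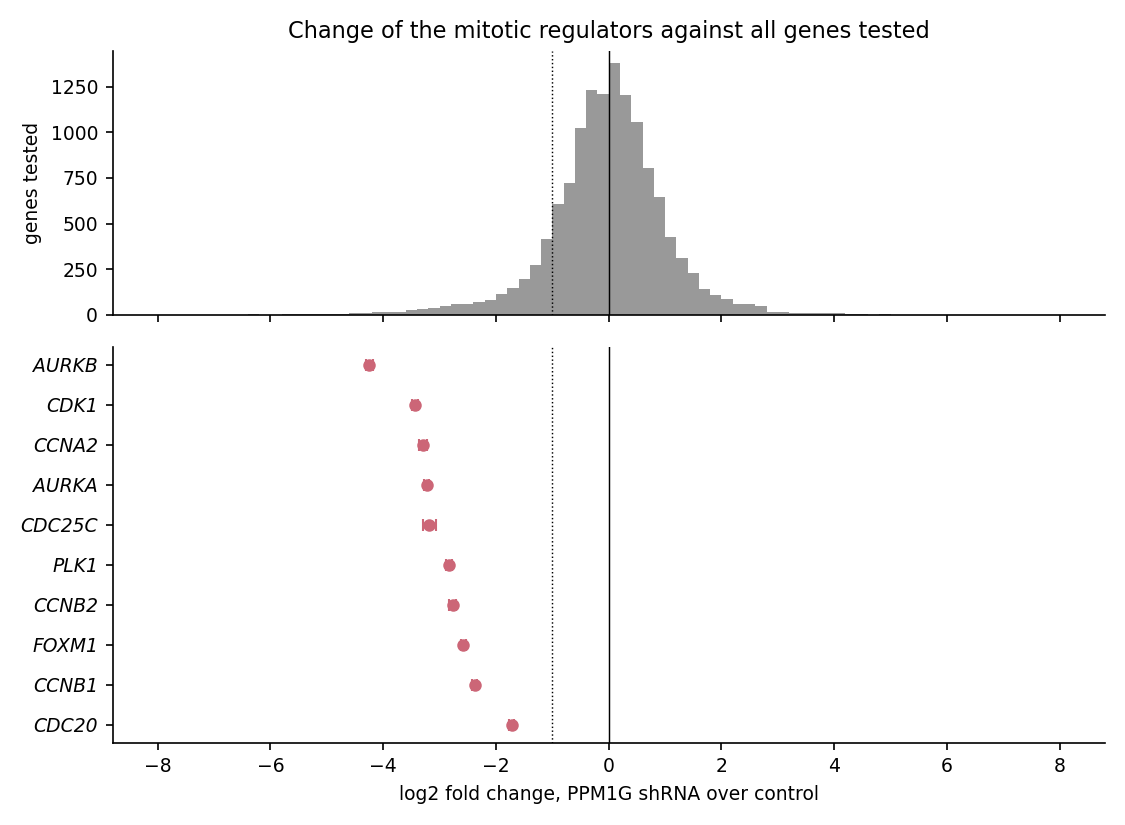
Top, number of genes tested in bins of log2 fold change (PPM1G shRNA over control); bottom, log2 fold change of the 10 genes with SE bars. The solid line marks no change and the dotted line a 2-fold fall; the 10 genes lie between −4.25 and −1.72, in the left tail of all genes.

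The falls were not all of 1 size. Within-library count ratios, which do not depend on library scaling, were used to set neighbours in the order of falls side by side, as a description without a test. AURKB fell further than CDK1, the next in order, by 0.80 ± 0.16 (SE of the log2 ratio change). CDK1, CCNA2, AURKA and CDC25C followed each other with steps of 0.16 ± 0.11, 0.05 ± 0.06 and 0.06 ± 0.04, and in each of these steps the ratios of the groups overlapped. CDC25C and PLK1 were separated by 0.35 ± 0.06, while PLK1 and CCNB2 (0.05 ± 0.07) overlapped again. The steps from CCNB2 to FOXM1 (0.19 ± 0.07) and from FOXM1 to CCNB1 (0.20 ± 0.03) were without overlap. CCNB1 and CDC20, at the shallow end, differed by 0.66 ± 0.04. The coefficient of variation of CPM between libraries ran from 1.33% to 6.66% in the controls and from 1.78% to 10.4% in the PPM1G shRNA libraries.

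Levels were compared between genes in FPKM, which divides each count by the gene's length and the library total. In control libraries the order was CDC20 (122 ± 5.5 FPKM, SD, n = 3), AURKB (94.3 ± 2.4), FOXM1 (72.2 ± 1.1), CDK1 (71.1 ± 2.6), CCNB2 (64.2 ± 0.95), PLK1 (51.9 ± 1.3), CCNB1 (50.9 ± 0.64), AURKA (39.7 ± 1.2), CCNA2 (20.1 ± 0.41) and CDC25C (8.13 ± 0.54). FOXM1 and CDK1, and PLK1 and CCNB1, overlapped in their ranges. In PPM1G shRNA libraries the order was CDC20 (39.8 ± 0.65 FPKM), FOXM1 (12.96 ± 0.55), CCNB1 (10.5 ± 0.17), CCNB2 (10.1 ± 1.1), PLK1 (7.86 ± 0.27), CDK1 (6.99 ± 0.68), AURKB (5.32 ± 0.43), AURKA (4.53 ± 0.12), CCNA2 (2.20 ± 0.083) and CDC25C (0.962 ± 0.042). There the ranges overlapped for CCNB1 and CCNB2 and for PLK1 and CDK1. AURKB went from the place after CDC20 to the place after CDK1, while CDC20, AURKA, CCNA2 and CDC25C kept theirs.

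Summed over the 10 genes, FPKM was 592, 597 and 595 in the controls and 102, 98.7 and 103 in the PPM1G shRNA libraries. CDC20 made up 19.5%, 21.0% and 21.0% of that sum in control libraries and 39.3%, 39.5% and 39.1% in PPM1G shRNA libraries. AURKB went the other way, from 15.9% ± 0.45 to 5.25% ± 0.33 (SD, n = 3). The share of FOXM1 went from 12.1% ± 0.16 to 12.8% ± 0.31, without overlap of the libraries. Ranked by FPKM among all genes tested, CDC20 moved from the 96.9th to the 87.7th percentile. AURKB moved from the 95.6th to the 40.1st, CDK1 from the 93.8th to the 46.3rd and CDC25C from the 52.0th to the 16.6th.

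**Figure D3:**
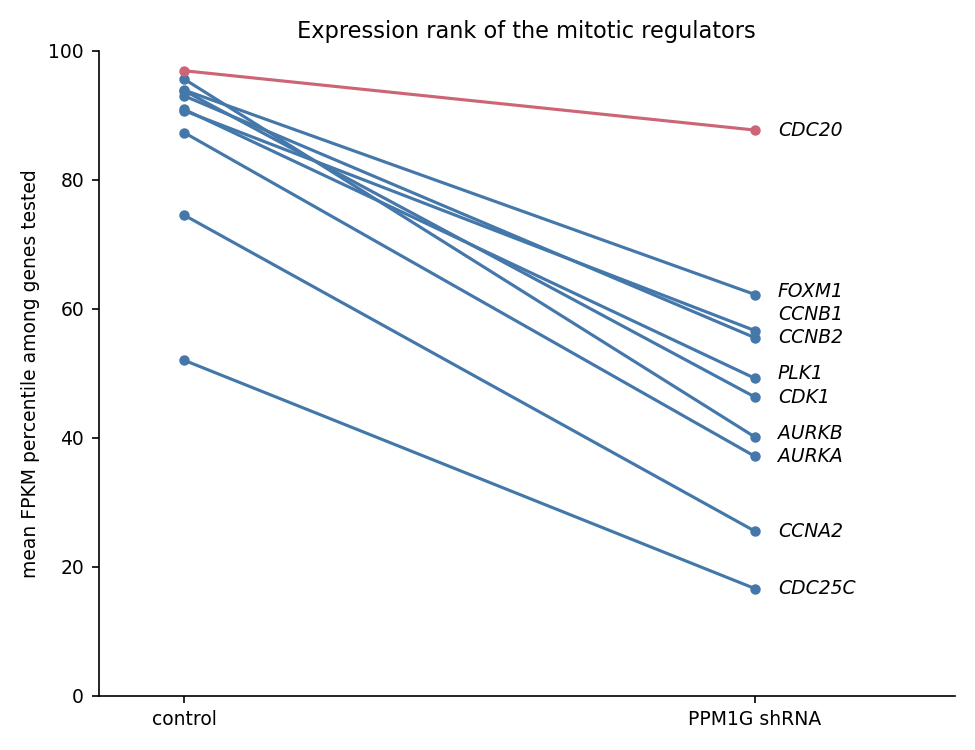
Mean FPKM percentile (0 to 100) of the 10 genes among all genes tested, in control and PPM1G shRNA libraries, with a line per gene. CDC20 (red) ends at the 87.7th percentile, while the other 9 end between the 16.6th and the 62.2nd.

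Ratios of each regulator to a partner, paralog or opponent were then taken within each library for 13 pairs. With 3 libraries against 3, an exact two-sided permutation test cannot give a p below 0.10, and 12 of the 13 pairs reached it (Benjamini-Hochberg adjusted p = 0.108 for each), so no pair passes 0.05. AURKB to AURKA went from 2.30, 2.35 and 2.47 in FPKM to 1.23, 1.05 and 1.25, a log2 change of −1.02 ± 0.09 (SE). CCNB1 to CDK1 went from 0.729, 0.679 and 0.745 to 1.64, 1.33 and 1.56, a log2 change of 1.07 ± 0.10. Per length, the transcript of cyclin B1 was thus below that of its kinase in all control libraries and above it in all PPM1G shRNA libraries. In CPM, which is not divided by length, CCNB1 stayed below CDK1 in every library. The PPM1G shRNA libraries had 21.0, 20.3 and 20.4 CPM for CCNB1 against 21.5, 25.5 and 22.0 for CDK1. CCNA2 to CDK1 did not differ beyond its spread (0.16 ± 0.11, exact permutation p = 0.40). CDK1 to CDK2, its S phase relative, went from 2.19 ± 0.051 to 0.983 ± 0.18 (SD, n = 3).

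The CCNB2 to CCNB1 ratio moved least after CCNA2 to CDK1 (−0.39 ± 0.09), and AURKB to its partner INCENP changed by −1.36 ± 0.15. The 3 widest changes were those of PLK1 to PLK2 (−4.89 ± 0.06), CDC25C to CDC25B (−3.91 ± 0.08) and CDC25C to WEE1 (−3.21 ± 0.08). WEE1, the kinase that restrains CDK1, did not pass the test with TMM scaling (0.03 ± 0.05, adjusted p = 0.58 in edgeR) and passed as higher with plain library totals (log2 fold change 0.131) and on the FPKM scale, while CDC25C fell. The ratio of CDC25C to WEE1 in FPKM went from 0.902, 0.823 and 0.852 to 0.0994, 0.096 and 0.0839. CDC25B, a paralog that acts at centrosomes before mitosis, rose (0.73 ± 0.03), and CDC25C to CDC25B went from 0.222 ± 0.018 to 0.0148 ± 0.00078. PLK2, a stress-responsive paralog of PLK1, rose from 30.5 ± 0.78 to 127 ± 3.6 CPM, and PLK1 to PLK2 went from 5.08, 5.03 and 4.65 to 0.176, 0.158 and 0.165. PLK1 was thus the more abundant transcript per length in every control library and PLK2 in every PPM1G shRNA library. CDC20 to FZR1, the activator used after anaphase and in G1, went from 7.56 ± 0.36 to 2.67 ± 0.036.

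**Figure D4:**
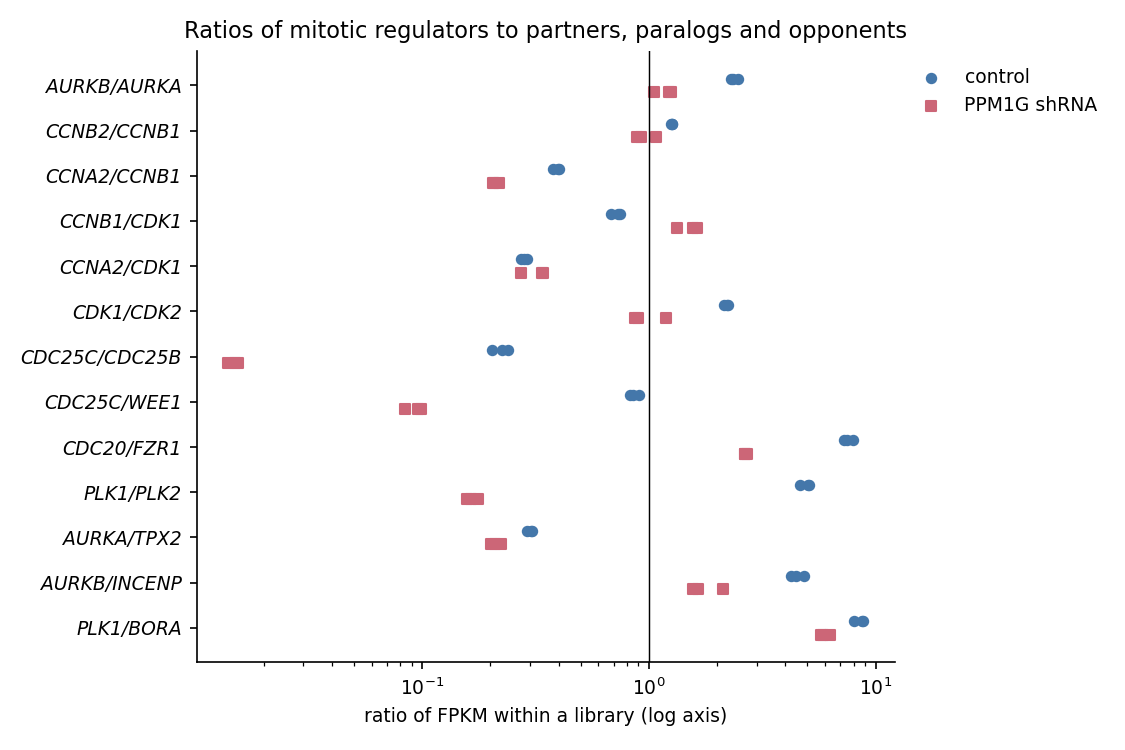
FPKM ratio within each library (log axis) for 13 gene pairs, in 3 control (circles) and 3 PPM1G shRNA libraries (squares); the vertical line marks equal levels. PLK1/PLK2 (4.92 to 0.166) and CDC25C/CDC25B (0.222 to 0.0148) move furthest, and CCNA2/CDK1 overlaps.

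The direct partners of the kinases fell with them. Of 8 partner genes, 8 were called lower (median log2 fold change −2.52), beside 41.3% of all genes tested. By more than 2-fold, 7 were lower, beside 9.2% of all genes tested. CDCA8 (−3.55 ± 0.08) and BIRC5 (−3.40 ± 0.05), which bind AURKB in the passenger complex, fell less than AURKB, as did INCENP (−2.88 ± 0.06). TPX2, the activator of AURKA, went from 483 ± 18 to 72.9 ± 2.8 CPM (−2.73 ± 0.04), and the AURKA to TPX2 ratio had a log2 change of −0.51 ± 0.05 (SE). CEP192, the centrosomal scaffold of AURKA and PLK1, was the exception to the large falls (−0.34 ± 0.05).

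Of 13 other mitotic kinase genes, 10 were called lower and 3 higher (median −2.58), beside 41.3% and 41.5% of all genes tested. The checkpoint kinase genes TTK (−3.16 ± 0.05), BUB1B (−2.81 ± 0.06) and BUB1 (−2.80 ± 0.06) and the kinase gene PBK (−3.60 ± 0.10) had the largest falls. The 3 that rose were NEK9 (0.64 ± 0.03), NEK7 (0.55 ± 0.05) and NEK6 (0.29 ± 0.03), which form a kinase cascade downstream of PLK1. Among 9 tested paralogs 5 were called lower and 4 higher (median −0.15), beside 41.3% and 41.5% of all genes tested, which is near the background. In the test against 2-fold, 2 paralogs were lower and 1 higher, beside 9.2% and 8.16% of all genes tested. PLK4, the centriole duplication kinase (−3.41 ± 0.08), and CDC25A (−2.60 ± 0.11) fell. PLK2 (2.06 ± 0.04) and AURKC, which is known mainly from germ cells (1.25 ± 0.24, from 1.07 to 2.55 CPM), rose. On the FPKM scale with limma 3 paralogs were called lower, and FZR1 (−0.22 ± 0.04 in edgeR) no longer passed.

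Of 12 interphase cyclin and cyclin-dependent kinase genes, 8 were called lower and 3 higher (median −0.45), beside 41.3% and 41.5% of all genes tested. CCNE2 (−3.96 ± 0.13) and CDK2 (−2.28 ± 0.05), which act in S phase, fell in the range of the mitotic genes, as did CCND1 (−2.71 ± 0.03) and CCNF (−2.01 ± 0.10). CDK7, part of the kinase that activates other CDKs (1.02 ± 0.05), and CCND2 (0.71 ± 0.09) rose. Of 13 tested genes listed as G2 brakes, 6 were called lower and 5 higher (median −0.08). These shares were near those of all genes tested (41.3% lower and 41.5% higher). The list also holds the CDK inhibitor genes CDKN1B and CDKN1C, which are not particular to G2. In the test against 2-fold the shares were above those of all genes, with 5 lower and 4 higher beside 9.2% and 8.16%. CLSPN, an adaptor of the kinase CHEK1 (−3.90 ± 0.05), and PKMYT1 (−3.84 ± 0.12) fell, whereas GADD45B (3.15 ± 0.04) and GADD45A (1.81 ± 0.03), known to be induced by stress, rose. CDKN1C (1.64 ± 0.09) and CDKN1B (1.17 ± 0.04) were the other genes higher by more than 2-fold.

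Of 21 APC/C genes and regulators, 14 were called lower and 4 higher (median −0.51), beside 41.3% and 41.5% of all genes tested. By more than 2-fold, 4 of the 21 were lower, beside 9.2% of all genes tested. The larger falls were in the ubiquitin-conjugating enzyme gene UBE2C (−2.90 ± 0.05), the checkpoint gene MAD2L1 (−2.41 ± 0.08) and the inhibitor gene FBXO5 (−2.03 ± 0.06), followed by UBE2S (−1.10 ± 0.05). MAD2L1BP, whose protein turns the checkpoint off (1.02 ± 0.06), and UBE2D1 (0.90 ± 0.04) rose. Of 12 phosphatases and regulators of mitotic exit, 9 were called lower and 3 higher (median −0.20), beside 41.3% and 41.5% of all genes tested. None passed the test against 2-fold in either direction, where 9.2% of all genes tested passed as lower and 8.16% as higher. With plain library totals, and on the FPKM scale, 6 of the 12 were called lower. PPP1CC (−1.06 ± 0.03) and ENSA (−0.66 ± 0.04) fell, and CDC14A (1.02 ± 0.09) and CDC14B (0.48 ± 0.05) rose.

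FOXM1 is recruited to CHR promoters through MuvB. Of 11 tested MuvB and DREAM genes, 9 were called lower and 1 higher (median −0.53), beside 41.3% and 41.5% of all genes tested. By more than 2-fold, 2 were lower and 0 higher, beside 9.2% and 8.16% of all genes tested. RBL1 (−1.51 ± 0.06), TFDP1 (−1.39 ± 0.04), LIN52 (−1.15 ± 0.08) and LIN54 (−1.02 ± 0.09) had the largest falls, and E2F5 rose (0.94 ± 0.05). LIN52 and LIN54 did not pass the test against 2-fold. MYBL2, which precedes FOXM1 on MuvB, was not tested: its counts were 1, 0 and 7 in the controls against 2, 2 and 1 with the PPM1G shRNA. No ratio of FOXM1 to MYBL2 was formed for that reason. Of 26 further G2/M genes listed as targets of MuvB or FOXM1, 26 were called lower (median −2.59), beside 41.3% of all genes tested. By more than 2-fold, 25 of the 26 were lower, beside 9.2% of all genes tested. MKI67 (−3.86 ± 0.05), CDCA3 (−3.75 ± 0.09), KIF14 (−3.51 ± 0.07) and NUF2 (−3.34 ± 0.08) had the largest falls. Among the 24 of these genes with a promoter in the RefSeq table, TTTGAA was present for 20 and CCAAT for 19. Over all tested genes with a promoter, the shares were 9.99% and 37%. Since the 26 were listed as such targets, with earlier results known, their motif and call counts are description only.

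**Figure D5:**
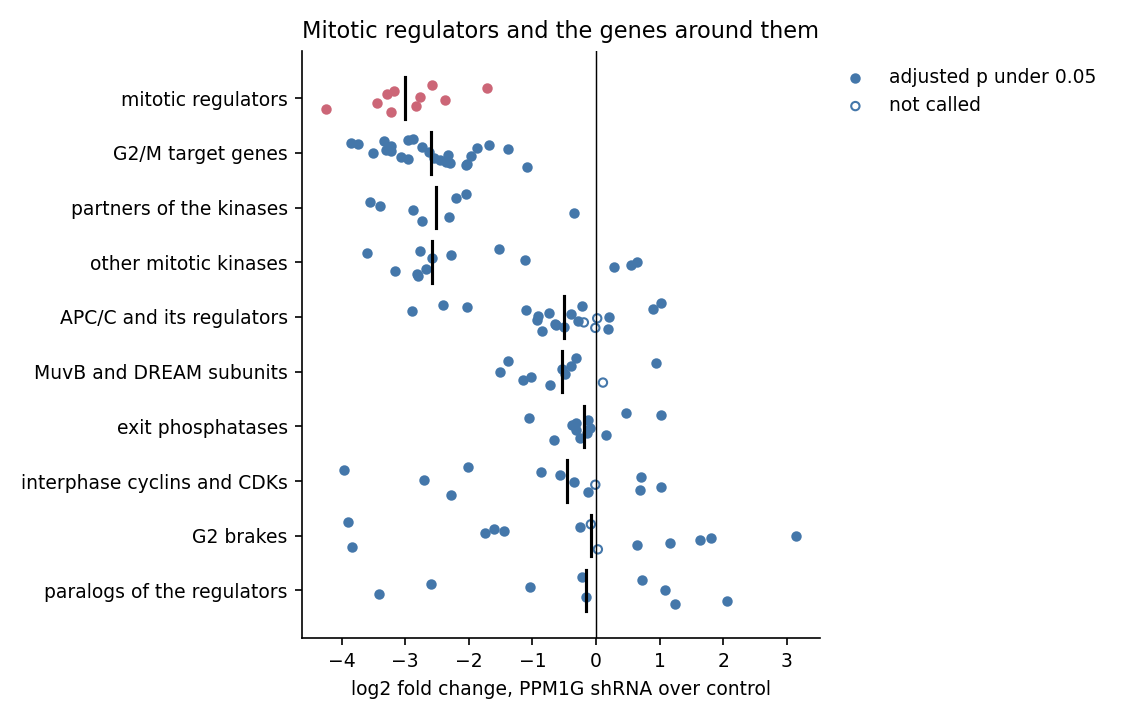
Log2 fold change of the 10 regulators (red) and of the genes in 9 related lists (blue), with a bar at each median; filled points have an adjusted p under 0.05 in edgeR's quasi-likelihood test and open points do not. The regulators (median −3.0), G2/M target genes (−2.59), partners (−2.52) and other mitotic kinases (−2.58) lie farthest left, and the other medians are −0.53 for MuvB and DREAM, −0.51 for APC/C, −0.45 for interphase, −0.20 for phosphatase, −0.15 for paralog and −0.08 for G2 brake genes.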

How the data were processed

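Total RNA of NCI-H1703 cells was sequenced in 3 control and 3 PPM1G shRNA libraries. The deposited table gives raw counts for each gene (whole numbers with unequal totals). Deposited FPKM values equal the count over a fixed gene length and the summed counts of the library, as checked from both tables. The build was GRCh38, per the submitters' processing notes; for aligner, counter, annotation and strand setting, the status is "not given in the sources used here". Depth was 31337553 to 35838246 counts per library.

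Counts were fitted with edgeR 4.0.16 in R 4.3.3 (filterByExpr with a minimum of 10 counts, TMM factors, robust quasi-likelihood fit, group as the only term), with Benjamini-Hochberg adjustment over 13060 genes and a threshold of 0.05. The SE of a log2 fold change is its size over the square root of F. glmTreat tested against 2-fold. DESeq2 1.42.0, limma 3.58.1 on log2(FPKM + 1) and log2(FPKM + 0.1), other scalings and filters, a replicate block and leaving out each library were alternatives. The fit was tested on simulated data. Locations came from RefSeq on GRCh38.p14.

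The 10 genes and the lists were chosen with earlier results of these data known. Genes were named by a rule: the 10 and PPM1G, from each list up to 4 called genes with the largest change and up to 2 called genes with the largest change against the list's median, the genes of the pairs, and the 5 genes with the nearest profile. CEP192, NEK6, CDKN1B, CDKN1C and overlapping genes were added after their values were seen.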

Additional observations from a re-analysis of the deposited data

How the results depend on the processing

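All 10 regulators were called lower under every alternative run, which were other scaling factors, plain library totals, other filters on low counts, DESeq2, limma on FPKM and leaving out each library. With replicate number as a block, 10 were called lower, and 5382 genes in all against 5399 without it. Over all genes tested, same-numbered libraries did not deviate together (correlations 0.0142, −0.0203 and 0.00364 for numbers 1 to 3). A weak shared effect, or one in few genes, would not show in these values, so a common culture or batch is not excluded. The log2 fold change stayed between −4.29 and −3.92 for AURKB and between −1.75 and −1.59 for CDC20. CDC25C ranged from −3.21 to −2.22, the latter on log2(FPKM + 1), a scale that by construction understates low genes. With limma on log2(FPKM + 1) and on log2(FPKM + 0.1), 3 paralogs were called lower in place of 5, and 2 MuvB and DREAM genes were called higher in place of 1; the cause was not tested. Plain library totals moved the median of all genes from 0.01 to 0.12 on the log2 scale and the split of calls to 4813 lower and 6107 higher, from 5399 and 5422.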

Other observations

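The 5 other genes whose profile over the 6 libraries lay closest to the mean profile of the 10 regulators were SKA1, which encodes a kinetochore protein, the histone variant gene H2AX, IQGAP3, the kinesin gene KIF2C and ARHGAP11A. Their log2 fold changes were −2.94 ± 0.09 (SE), −2.93 ± 0.05, −2.94 ± 0.05, −3.06 ± 0.04 and −2.97 ± 0.08. With 2 groups, such likeness is set mainly by the size of the difference between the groups.

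The deposited table annotates 124 genes to the KEGG cell cycle pathway, 7 of them among the regulators; this list was added after the data were seen. Of the 113 other tested genes, 71 were called lower and 33 higher (median log2 fold change −0.43), beside 41.3% and 41.5% of all genes tested. By more than 2-fold, 35 were lower and 6 higher, beside 9.2% and 8.16% of all genes tested.

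Among 991 genes lower by more than 2-fold with a promoter in the RefSeq table, 18.2% held TTTGAA, 48.7% held CCAAT and 10.8% held both. The shares were 7.69%, 35.3% and 3.31% among 845 genes higher by more than 2-fold, and 9.99%, 37% and 4.24% among all 10751 tested genes with a promoter. A single start was searched per gene, the outer end where listed and otherwise the first entry. With any listed start, TTTGAA was found for 21.6%, 11.5% and 14.1% of the lower, higher and all tested genes, and CCAAT for 55.2%, 43.7% and 43.6%. These are descriptions without a test, and genes are not independent replicates.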
